A study of Homo sapiens with 2 samples.

Results

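The human nuclear receptor genes were examined in FAIRE-seq peak lists of HepG2 cells, as 45 genes of receptor subfamilies 0 to 6 picked by symbol. A peak belonged to a receptor gene when the deposited annotation named that gene as the nearest one. Of the 45 genes, 32 were named for at least 1 peak, and together they held 94 of the 56159 listed peaks, which named 13858 genes in all. FAIRE (formaldehyde-assisted isolation of regulatory elements) enriches DNA that is free of crosslinked protein, so a peak marks open chromatin and not transcription. HepG2 is an established human liver cancer cell line. The control library came from HepG2 cells transduced with lentiviral particles that carry a scrambled small hairpin RNA (shRNA), and the NR2E3-depleted library from HepG2 cells transduced with lentiviral particles that carry an shRNA against NR2E3. There was 1 library per group, so no difference below has a replicate check and none was tested. The 95% intervals given throughout take in counting error alone.

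Nuclear receptors are transcription factors, most of which have a zinc finger DNA-binding domain. They share a ligand-binding domain that in many members takes up lipophilic molecules such as steroids, retinoids, bile acids and fatty acids. Without an activating ligand many of them hold corepressors on DNA, and ligand binding exchanges these for coactivators that acetylate histones. In liver they control bile acid, lipid, glucose and drug metabolism, and many work as heterodimers with a retinoid X receptor. NR2E3, the depleted receptor, is an orphan receptor best known from photoreceptors of the retina.

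The peaks stood in 3 lists. Of the receptor peaks, 26 were common to both libraries, 22 were specific to the control library and 46 were specific to the NR2E3-depleted library. A promoter peak is one that the annotation placed from 1000 bp upstream to 100 bp downstream of a transcription start site (TSS), and all others are called distal. Promoter peaks numbered 11 in the common list, 2 in the control-specific list and 7 in the depleted-specific list, at 18 genes in all. The distal peaks numbered 15, 20 and 39 in the same order. Each peak was called from few sequenced tags. The median was 16 tags for common receptor peaks (Poisson interval 9.15 to 26.0), 15.5 for control-specific ones and 12 for depleted-specific ones (6.20 to 21.0). The tag numbers follow from the listed scores, whose smallest step was taken as 1 tag, and common peaks carry the control library's scale. Depths inferred in that way came to 24.6 M (mega) tags for the control and 19.7 M for the NR2E3-depleted cells.

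The sequences below are those of specific promoter peaks, which are the places where promoters of receptor genes were listed in 1 library only, together with the NR2E3 peak, the PPARD promoter peak and the peak with the highest score in each specific list. They were read from the hg38 genome on the strand of the gene, 5′ to 3′, for at most 300 of the 301 bases of a peak, and stop where an annotated exon begins. The HNF4G and RXRA peaks are named only. Capitals mark matches on either strand to GGGCGG (the core of an Sp1 box), CCAAT (the core of an NFY box) and the nuclear receptor half-sites AGGTCA and AAGTCA. A match is a description of the letters and not a bound site.
NR1D1 control-specific promoter peak, chr17:40101379-40101678, minus strand: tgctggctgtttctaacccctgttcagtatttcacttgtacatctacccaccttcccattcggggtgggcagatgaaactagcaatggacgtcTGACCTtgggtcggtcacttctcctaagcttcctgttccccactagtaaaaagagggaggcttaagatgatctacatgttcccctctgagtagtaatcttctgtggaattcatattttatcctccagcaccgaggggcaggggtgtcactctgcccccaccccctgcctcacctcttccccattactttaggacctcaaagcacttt
NR1D2 depleted-specific promoter peak, chr3:23945761-23946060, plus strand: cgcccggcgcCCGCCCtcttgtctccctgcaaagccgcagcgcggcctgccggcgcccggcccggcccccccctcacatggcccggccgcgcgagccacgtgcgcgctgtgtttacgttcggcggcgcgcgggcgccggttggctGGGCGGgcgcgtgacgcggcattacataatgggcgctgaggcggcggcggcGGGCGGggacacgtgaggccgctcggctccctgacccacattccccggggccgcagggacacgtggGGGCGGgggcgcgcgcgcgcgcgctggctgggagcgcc
NR2F2 depleted-specific promoter peak, chr15:96330479-96330699, plus strand: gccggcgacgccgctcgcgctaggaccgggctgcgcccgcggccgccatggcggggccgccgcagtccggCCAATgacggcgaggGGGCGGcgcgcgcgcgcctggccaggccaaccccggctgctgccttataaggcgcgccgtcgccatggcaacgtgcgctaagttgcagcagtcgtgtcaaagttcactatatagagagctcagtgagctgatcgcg
NR3C2 depleted-specific promoter peak, chr4:148442521-148442731, minus strand: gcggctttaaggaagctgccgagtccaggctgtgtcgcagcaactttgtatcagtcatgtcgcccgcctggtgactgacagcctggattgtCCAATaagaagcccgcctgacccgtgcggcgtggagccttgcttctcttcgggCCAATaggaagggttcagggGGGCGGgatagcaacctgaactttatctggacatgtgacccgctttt
NR4A3 depleted-specific promoter peak, chr9:99821645-99821854, plus strand: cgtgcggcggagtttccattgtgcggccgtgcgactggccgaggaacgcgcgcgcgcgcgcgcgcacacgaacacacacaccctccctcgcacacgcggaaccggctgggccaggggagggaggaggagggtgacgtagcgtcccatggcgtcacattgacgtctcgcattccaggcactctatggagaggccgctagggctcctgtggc
NR5A2 depleted-specific promoter peak, chr1:200027339-200027613, plus strand: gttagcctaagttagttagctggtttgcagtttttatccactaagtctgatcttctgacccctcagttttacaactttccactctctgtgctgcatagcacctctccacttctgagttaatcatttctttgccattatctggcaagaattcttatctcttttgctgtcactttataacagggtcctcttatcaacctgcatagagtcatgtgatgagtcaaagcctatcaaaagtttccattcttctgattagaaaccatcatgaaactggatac
RARG depleted-specific promoter peak, chr12:53220988-53221287, minus strand: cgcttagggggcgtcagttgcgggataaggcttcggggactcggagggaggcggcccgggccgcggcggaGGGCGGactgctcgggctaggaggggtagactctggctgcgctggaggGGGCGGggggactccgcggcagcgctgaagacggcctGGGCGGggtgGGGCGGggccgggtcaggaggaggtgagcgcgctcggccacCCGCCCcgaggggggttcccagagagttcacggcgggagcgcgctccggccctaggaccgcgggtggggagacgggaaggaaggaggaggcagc
NR2E3 depleted-specific distal peak, chr15:71801138-71801437, plus strand: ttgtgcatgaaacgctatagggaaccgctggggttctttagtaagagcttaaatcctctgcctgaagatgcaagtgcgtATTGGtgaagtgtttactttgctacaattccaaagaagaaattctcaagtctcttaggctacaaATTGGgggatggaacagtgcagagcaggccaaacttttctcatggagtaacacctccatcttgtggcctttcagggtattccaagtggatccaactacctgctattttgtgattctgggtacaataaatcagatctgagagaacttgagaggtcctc
PPARD common promoter peak, chr6:35342322-35342557, plus strand: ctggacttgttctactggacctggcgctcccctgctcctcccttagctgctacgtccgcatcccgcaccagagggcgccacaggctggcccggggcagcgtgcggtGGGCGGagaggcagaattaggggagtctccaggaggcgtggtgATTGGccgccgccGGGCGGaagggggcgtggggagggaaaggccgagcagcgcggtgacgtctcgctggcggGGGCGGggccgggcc
NR3C1 control-specific distal peak, chr5:143507362-143507661, minus strand: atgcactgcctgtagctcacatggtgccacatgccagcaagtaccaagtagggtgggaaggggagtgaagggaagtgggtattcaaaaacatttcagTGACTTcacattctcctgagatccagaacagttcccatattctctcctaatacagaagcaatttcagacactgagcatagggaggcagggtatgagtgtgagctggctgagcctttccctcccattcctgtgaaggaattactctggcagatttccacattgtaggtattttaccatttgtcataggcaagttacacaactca
RXRB depleted-specific peak in intron 4, chr6:33197549-33197761, minus strand: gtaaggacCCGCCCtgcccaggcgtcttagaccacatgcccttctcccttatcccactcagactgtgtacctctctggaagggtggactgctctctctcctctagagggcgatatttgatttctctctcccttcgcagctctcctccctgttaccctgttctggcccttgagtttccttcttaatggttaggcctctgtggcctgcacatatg

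These promoter sequences differed widely in base composition. The NR1D2 peak held 79.7% G and C and the RARG peak 75.7%, and their sequences above show runs of GGGCGG in either orientation. Over the whole peak NR1D2 held 4 such boxes and RARG 5. The NR5A2 peak, by contrast, held 39.2% G and C and no GGGCGG, and its whole peak held 1 AGGTCA half-site. NR3C2 held 2 CCAAT boxes and 3 GGGCGG boxes over its whole peak. The control-specific NR1D1 promoter peak held 1 AGGTCA half-site, printed as its complement TGACCT, and no GGGCGG.

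The depleted receptor itself had a single peak. NR2E3 lies at chr15:71792638-71818259 (hg38), and the only peak named for it was the depleted-specific one at chr15:71801138-71801438, with a score of 7.1 that rests on 14 tags. The deposited annotation put it 9266 bp upstream of the TSS and classed it as intergenic, while its centre lies inside the NR2E3 gene in GENCODE. No promoter peak was listed for NR2E3 in either library. FAIRE does not read the transcript, so the depletion was not checked by these lists. The sequence above holds 2 CCAAT boxes, on the opposite strand as ATTGG, and no receptor half-site.

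**Figure D1:**
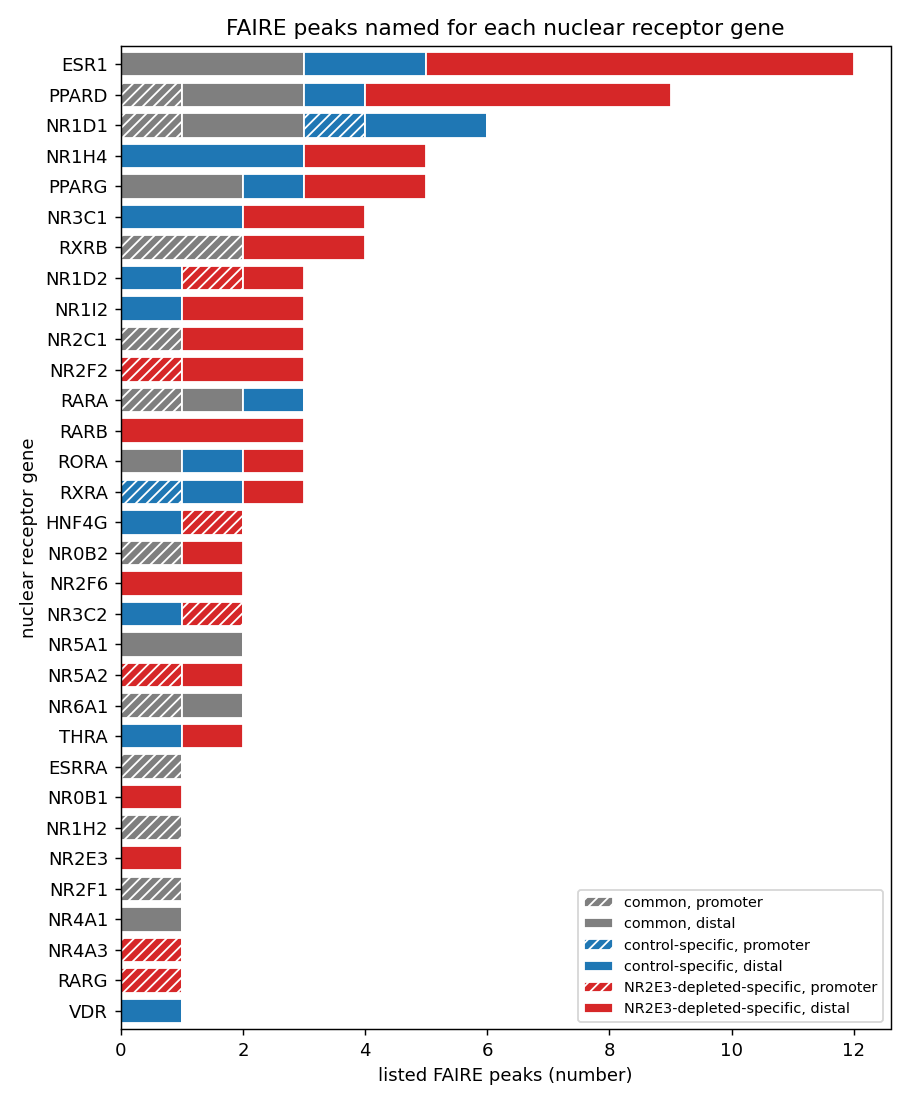
Number of listed FAIRE peaks (horizontal axis) named for each of the 32 nuclear receptor genes with a peak (vertical axis). Grey marks common, blue control-specific and red NR2E3-depleted-specific peaks, and hatching marks promoter peaks. ESR1 had 12 peaks, none of them at a promoter, and NR1D1 had 6 peaks, none of them depleted-specific.

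The plot of peaks by gene shows that a few genes held many of the peaks. ESR1 had 12, PPARD 9, NR1D1 6, PPARG 5 and NR1H4 5, while 9 of the 32 genes had a single peak. In 16 genes the depleted-specific peaks outnumbered the control-specific ones, in 5 they were fewer and in 11 the numbers were equal. These are 50%, 15.6% and 34.4% of the 32 genes, and over all 10318 protein-coding genes with a peak the shares were 55.2%, 18.2% and 26.7%. For 8 genes (NR0B1, RARB, RARG, NR2E3, NR2F2, NR2F6, NR4A3 and NR5A2) all peaks were depleted-specific, 25% of the 32 against 29.8% of all genes with a peak. For VDR the only peak was control-specific. Genes with control-specific peaks alone were 3.1% of the 32 against 8.2% of all genes with a peak. Only common peaks were listed for NR1H2, NR2F1, ESRRA, NR4A1, NR5A1 and NR6A1, 18.8% of the 32 against 17.2% of all genes with a peak. The number of depleted-specific peaks exceeded that of control-specific ones by 5 in ESR1, the widest margin, followed by 4 in PPARD and 3 in both RARB and NR2F2. NR1D1 had the largest difference the other way, with 3 control-specific peaks and 0 depleted-specific ones.

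By subfamily, the 18 genes of subfamily 1, which holds the receptors for thyroid hormone, retinoic acid, fatty acids, oxysterols, bile acids and vitamin D, were named for 45 peaks at 13 genes, of which 12 were common, 14 control-specific and 19 depleted-specific. Subfamily 2, with the retinoid X receptors and the COUP-TF group, had 4, 3 and 12 at 8 of its 11 genes. Subfamily 3, the steroid and oestrogen-related receptors, had 4, 5 and 10 at 4 of its 8 genes. The peaks in the remaining subfamilies were few: 1, 0 and 2 in subfamily 0, 1, 0 and 1 in subfamily 4, 2, 0 and 2 in subfamily 5 and 2, 0 and 0 in subfamily 6. In the whole series the lists held 14368, 16236 and 25555 peaks, so 45.5% of all peaks were depleted-specific. At promoters the lists held 3445, 900 and 2838 peaks. A peak in any list was named for 51.4% of all protein-coding genes. Promoter peaks were listed in subfamily 1 as 4 common, 1 control-specific and 2 depleted-specific, and in subfamily 2 as 4, 1 and 2. Subfamilies 3, 4 and 5 each had 1 depleted-specific promoter peak, and subfamilies 0, 3 and 6 each had 1 common promoter peak. The 2 control-specific promoter peaks lay in subfamilies 1 and 2, 1 in each, which hold 18 and 11 of the 45 genes. Such a peak was named for 4.44% of the 45 genes, near the 3.64% of all protein-coding genes.

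Retinoid X receptors are the dimer partners of many subfamily 1 receptors, and the listed peaks of RXRA and RXRB differed. The RXRA promoter was listed in the control library only, by a peak 404 bp upstream of the TSS with a score of 6.1 and 15 tags (8.40 to 24.7). RXRA also had a control-specific peak of 18 tags in intron 9 and a depleted-specific peak of 19 tags in intron 1, 7578 bp from the promoter peak. RXRB had 2 common promoter peaks, 15 tags each, at 11 bp and 649 bp downstream of its own TSS. The second of them was placed at the promoter of the neighbouring SLC39A7. The depleted-specific RXRB peak in intron 4 had the highest score of all receptor peaks, 12.7 from 25 tags, and another depleted-specific peak of 12 tags lay in intron 2. RXRG had no listed peak.

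Among the receptors for retinoic acid, thyroid hormone and vitamin D, RARA was listed at its promoter in both libraries, 77 bp upstream, with a score of 8.95 from 22 tags. A control-specific peak of 15 tags lay in RARA intron 2. RARG was listed at its promoter in the NR2E3-depleted library only, 776 bp upstream, with the lowest tag number of any promoter peak here, 11 tags (5.49 to 19.7). RARB, a retinoic acid target gene itself, had 3 depleted-specific peaks of 13, 13 and 11 tags and none in the other lists. These lay 148620 and 55300 bp upstream of its TSS and 184880 bp downstream. The thyroid hormone receptor gene THRA had 1 control-specific peak of 16 tags in intron 2 and 1 depleted-specific peak of 11 tags in intron 1. VDR, the vitamin D receptor gene, had 1 control-specific peak of 13 tags in intron 1.

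A group of 8 receptors of lipid and bile acid metabolism, with NR0B2 and NR5A2 among them, held 24 peaks. They comprised 7 common, 5 control-specific and 12 depleted-specific peaks. PPARD, a fatty acid sensor, had its promoter peak in the common list, 86 bp upstream with 19 tags (11.4 to 29.7). Its 5 depleted-specific peaks had 11 to 13 tags and were distal. Of these, 4 lay in intron 2, from 26261 to 37957 bp downstream of the TSS, and 1 lay 15221 bp upstream. A control-specific peak of 16 tags lay in intron 1, 1723 bp downstream, and had more tags than any of the 5. The other common peaks had 21 tags, in intron 2 and 18035 bp downstream, and 16 tags, 10077 bp upstream. PPARG, the master receptor of fat cell differentiation, had no promoter peak, and its 2 common, 1 control-specific and 2 depleted-specific peaks all lay inside the gene. NR1H2, the ubiquitous oxysterol receptor LXR beta, had only a common promoter peak of 13 tags, 104 bp upstream.

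NR1H4 encodes the bile acid receptor FXR, and all of its 5 peaks were distal. The control-specific ones had 18, 16 and 17 tags and the depleted-specific ones 14 and 12 tags. In intron 1 a control-specific and a depleted-specific peak lay 552 bp apart, centre to centre. NR0B2, the bile-acid-induced repressor SHP, had a common promoter peak of 18 tags 343 bp upstream and a depleted-specific peak of 11 tags 3193 bp downstream. Both NR0B2 peaks lie inside NUDC in GENCODE, which overlaps that stretch. NR5A2, also called LRH-1 and a regulator of bile acid synthesis, was listed in the NR2E3-depleted library only, with a promoter peak of 17 tags (9.90 to 27.2) 221 bp upstream and a peak of 12 tags in intron 2. The closest listed peak of the control library was 331844 bp from the latter. NR1I2, the xenobiotic sensor PXR, had 2 depleted-specific peaks of 11 and 13 tags in intron 1 and a control-specific peak of 14 tags near the end of the gene.

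**Figure D2:**
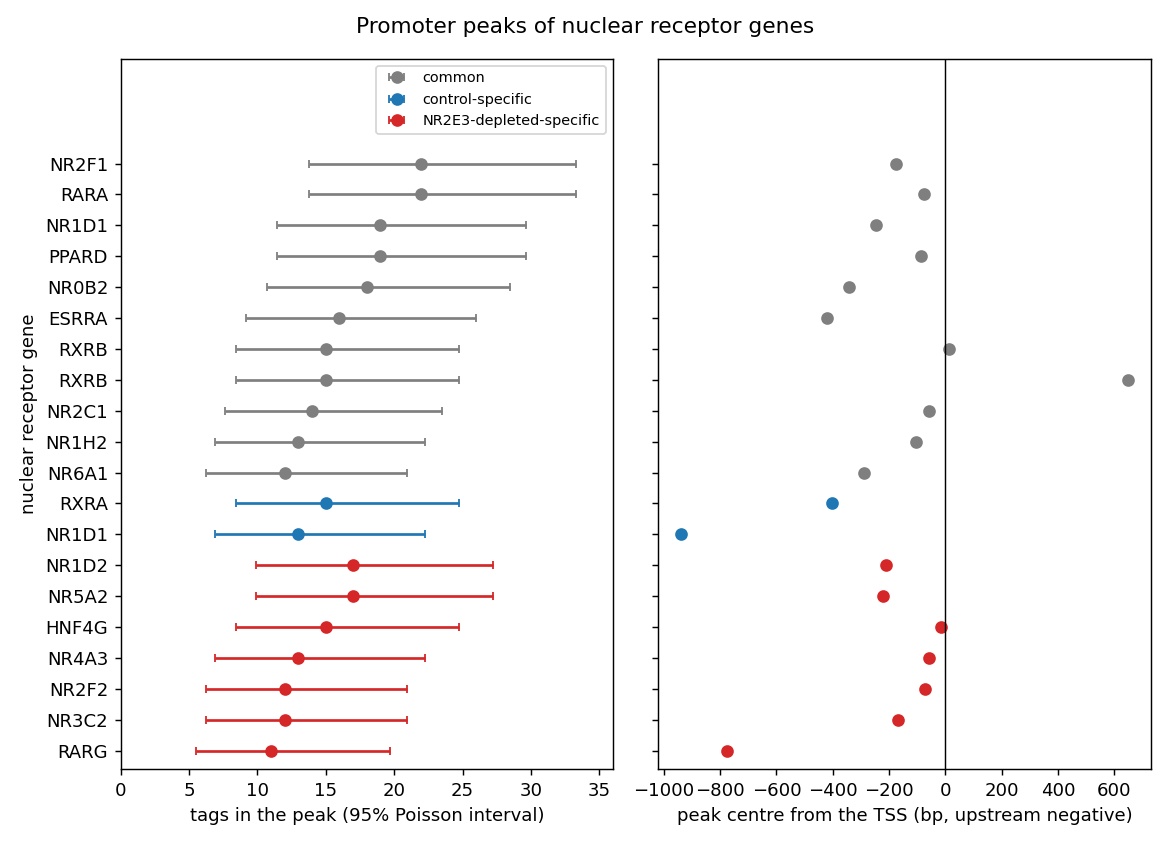
Promoter peaks of nuclear receptor genes, 1 point per peak, coloured by list. The left panel gives the tags in the peak with Poisson 95% intervals, and the right panel the distance of the peak centre from the TSS of the gene in bp. Common peaks had 12 to 22 tags and depleted-specific ones 11 to 17 tags, and the intervals of the lists overlap.

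REV-ERB and ROR receptors compete for the same elements in circadian clock genes. NR1D1 (REV-ERB alpha) was listed as open in both libraries at its promoter, 248 bp upstream with 19 tags, and in intron 1 at 2 peaks, with 23 and 15 tags. The intron 1 peak of 23 tags had the highest score of all common receptor peaks, 9.35. Upstream of these, 3 control-specific peaks of 13, 14 and 13 tags lay 940, 3380 and 5122 bp from the TSS. The first was the control-specific promoter peak, 692 bp from the common promoter peak, so the NR1D1 promoter was listed in both libraries. NR1D2 (REV-ERB beta) was listed the other way, with a depleted-specific promoter peak of 17 tags 210 bp upstream and a depleted-specific peak of 15 tags in intron 1. Its control-specific peak of 16 tags lay 52998 bp downstream. The NR1D2 promoter peak overlaps NKIRAS1 as well as NR1D2 in GENCODE. RORA had 1 peak in each list, of 12 tags (common), 14 tags (control-specific) and 19 tags (depleted-specific).

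Steroid receptors held 18 peaks, 12 of them at ESR1, the oestrogen receptor alpha gene. The 3 common ESR1 peaks had 15, 20 and 14 tags and lay 32328, 21558 and 14585 bp upstream of the annotated TSS. The 7 depleted-specific ones had 10 to 19 tags, and 5 of them lay in introns. The 2 control-specific ones had 16 tags, in an intron of CCDC170, and 12 tags, in ESR1 intron 2, and the latter lay 1153 bp from a depleted-specific peak of 15 tags. In GENCODE the ESR1 gene runs 472.929 kb, from chr6:151656691-152129619, and the 3 common peaks lie inside it. NR3C1, the glucocorticoid receptor gene, had 2 control-specific peaks of 20 and 18 tags and 2 depleted-specific peaks of 11 and 10 tags, from 41108 to 119728 bp upstream. The peak of 20 tags, printed above, had the highest score of the control-specific receptor peaks, 8.13. A depleted-specific peak of 10 tags lay 554 bp from it. NR3C2, the mineralocorticoid receptor gene, had a depleted-specific promoter peak of 12 tags (6.20 to 21.0) 167 bp upstream and a control-specific peak of 17 tags in intron 2. ESRRA, an oestrogen-related receptor of mitochondrial genes, had only a common promoter peak of 16 tags 421 bp upstream.

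The 8 orphan receptors of subfamily 2, NR2E3 included, were named for 12 peaks. They comprised 2 common, 1 control-specific and 9 depleted-specific peaks, where 45.5% of all listed peaks were depleted-specific. None of the 12 lay on chromosomes 2, 6, 14, 16, 17 or 20, called dense below. On the other chromosomes 4910 of all peaks were common, 2983 control-specific and 8706 depleted-specific. Of these 9 peaks, 2 had at least 15 tags, and NR2C2 and NR2E1 had no peak. NR2F2 (COUP-TF2), a receptor of venous and mesenchymal cells, had a promoter peak of 12 tags 71 bp upstream and 2 distal peaks of 18 and 13 tags, all depleted-specific. Its relative NR2F1 (COUP-TF1) had only a common promoter peak, of 22 tags, 175 bp upstream. NR2F6 had 2 depleted-specific peaks of 11 and 12 tags. HNF4G, a relative of the liver factor HNF4 alpha, had a depleted-specific promoter peak of 15 tags 14 bp upstream and a control-specific peak of 14 tags 13539 bp upstream. NR2C1, the testicular receptor TR2, had a common promoter peak of 14 tags 58 bp upstream. Its 2 depleted-specific peaks of 11 tags each lay inside the neighbouring gene FGD6.

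NR4A3, an immediate-early receptor that is induced by growth and stress signals, had 1 peak, at its promoter and depleted-specific, 60 bp upstream with 13 tags (6.92 to 22.2). NR4A1 had 1 common peak of 14 tags in intron 1. NR0B1 (DAX1), a receptor of adrenal and gonadal development, had 1 depleted-specific peak of 12 tags 4110 bp upstream. NR6A1, the germ cell nuclear factor, had a common promoter peak of 12 tags 290 bp upstream and a common peak of 18 tags in intron 1. Both peaks named for NR5A1 (SF-1), the steroidogenic factor, were common, with 16 and 14 tags, and lie inside the adjacent NR6A1.

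No listed peak was named for 13 of the 45 genes: ESR2, ESRRB, ESRRG, NR1H3, NR1I3, NR2C2, NR2E1, NR4A2, PGR, PPARA, RORB, RXRG and THRB. Among them are 3 receptors with known roles in liver, PPARA, NR1H3 (LXR alpha) and NR1I3 (CAR). The nearest peak lay 44414 bp from any PPARA start site, and 5364 bp from any NR1I3 start site, where it was named for TOMM40L. For NR1H3 a control-specific peak lay 950 bp from a start site and a depleted-specific one 1430 bp from it, and both were named for MADD. THRB, the other thyroid hormone receptor gene, holds 1 common and 5 depleted-specific peaks inside its 378.604 kb, named for other genes such as THRB-AS1. NR6A1 likewise holds 4 common, 1 control-specific and 5 depleted-specific peaks inside the gene, and 1 depleted-specific peak lay 10 bp from an NR6A1 start site but was named for MIR181A2HG. A gene without a named peak was therefore not always a gene without a peak.

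**Figure D3:**
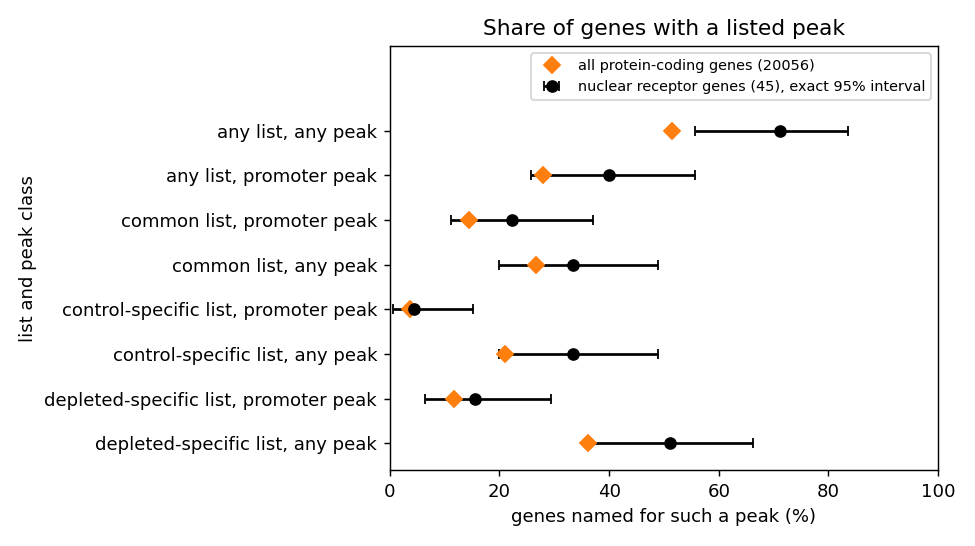
Share of genes (in %, horizontal axis) named for a peak, by list and peak class. Black points are the 45 nuclear receptor genes with exact 95% intervals and orange diamonds are 20056 protein-coding genes. The diamond lies inside the interval in all rows but that of any peak in any list, where receptor genes stood at 71.1% and all genes at 51.4%.

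Set against all 20056 protein-coding genes, receptor genes were named for a peak somewhat more often. A peak in any list was named for 32 of 45 receptor genes, 71.1% with an exact Clopper-Pearson interval of 55.7 to 83.6%, where the share over all protein-coding genes was 51.4%. A promoter peak in any list was named for 18 of 45, 40.0% (25.7 to 55.7%), where the background was 28%. Common promoter peaks were named for 10 of 45 receptor genes, 22.2% (11.2 to 37.1%), with a background of 14.5%. Common peaks of any class were named for 15, with a background of 26.7%. For the control-specific list the promoter count was 2 of 45, 4.44% (0.543 to 15.1%), with a background of 3.64%, and the count for any peak was 15, with a background of 21%. In the depleted-specific list 7 of 45 had a promoter peak, 15.6% (6.49 to 29.5%), with a background of 11.7%. There 23 of 45 had a peak of any class, 51.1% (35.8 to 66.3%), with a background of 36.1%. The shares with a promoter peak were thus near the background in each list. Median gene length was 46.8 kb in the receptor genes with a named peak and 100.2 kb in those without, and its part in the counts was not tested.

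The balance between the specific lists was likewise close to that of the series. Receptor genes had 46 depleted-specific against 22 control-specific peaks, a ratio of 2.09 (exact binomial interval 1.23 to 3.65), and all peaks had a ratio of 1.57 (1.54 to 1.61). At promoters the receptor counts were 7 and 2, a ratio of 3.50 (0.666 to 34.5), and the ratio over all promoter peaks was 3.15. Chromosomes 2, 6, 14, 16, 17 and 20 carried control-specific peaks at over 3 times the density per Mb of the median chromosome and are called dense here. They carry 36 of the 94 receptor peaks, at ESR1, PPARD, RXRB, NR1D1, RARA and THRA. On dense chromosomes the receptor ratio was 1.88 (0.746 to 5.11) and that of all peaks 1.27. On the others the receptor ratio was 2.21 (1.14 to 4.50) and that of all peaks 2.92. All 7 depleted-specific promoter peaks of receptor genes lay on chromosomes that were not dense, as did 1932 of all 2838 depleted-specific promoter peaks, 68.1%, and 35 of the 45 receptor genes. The intervals of the receptor ratios are wide and hold the value of all peaks in each of these comparisons.

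**Figure D4:**
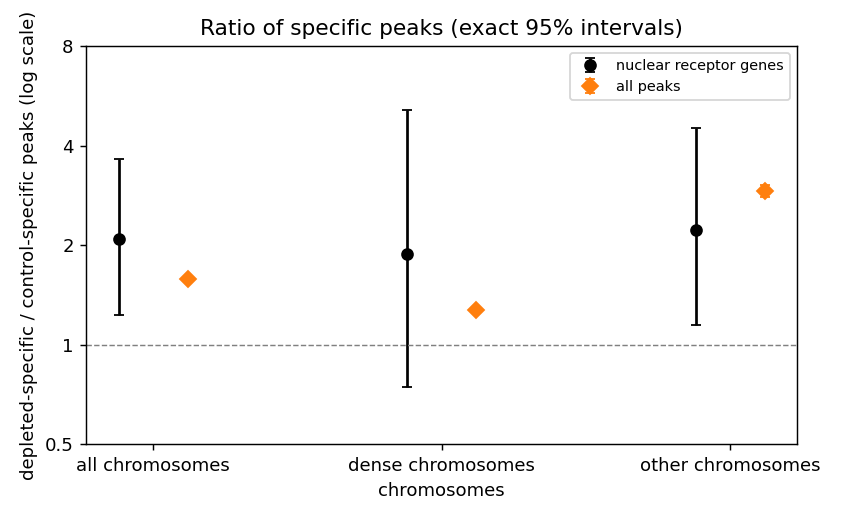
Ratio of depleted-specific to control-specific peaks on a log axis, for nuclear receptor genes (black) and for all peaks (orange), over all chromosomes and split by dense and other chromosomes. Bars are exact 95% binomial intervals, those of all peaks being about the size of the symbol. The receptor ratios of 2.09, 1.88 and 2.21 have intervals that hold the ratios of all peaks.

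The direction of that ratio depended on the number of tags required. With at least 15 tags in either library, receptor genes kept 13 control-specific and 12 depleted-specific peaks, a ratio of 0.923 (0.385 to 2.19), and all peaks gave 0.707. With a score of at least 6, which is scaled by depth, the receptor counts were 13 and 33, a ratio of 2.54, and all peaks gave 2.61. A score of 6 needs fewer tags in the NR2E3-depleted list than in the control list. Conversely, 15 tags is a score of 6.1 in the control list and of 7.6 in the NR2E3-depleted list, so the tag limit was stricter there. Of the 7 depleted-specific promoter peaks, those of HNF4G, NR1D2 and NR5A2 had at least 15 tags. Those of NR2F2, NR3C2, NR4A3 and RARG had 11 to 13 tags, which is within the counting error of the tag numbers of the 2 control-specific ones. These tag numbers are not scaled by depth. On the score, which is, they stood at 5.58 to 6.59 and the 2 control-specific ones at 5.29 and 6.1.

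**Figure D5:**
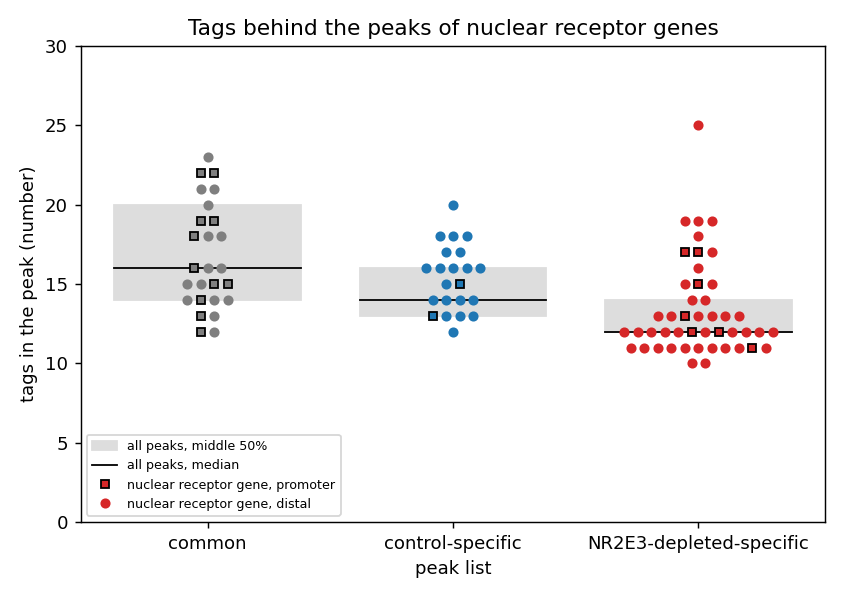
Tags in each peak of the nuclear receptor genes (vertical axis, number), by list, with squares for promoter and circles for distal peaks. Grey boxes span the middle 50% of all peaks of a list and lines mark their median. Receptor peaks ranged over 12 to 23 tags (common), 12 to 20 (control-specific) and 10 to 25 (depleted-specific), around list medians of 16, 14 and 12.

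Few specific receptor peaks had a near counterpart in the other library. Within 1000 bp, centre to centre, a peak of the other library was listed for 3 of 22 control-specific receptor peaks, 13.6% (2.91 to 34.9%), against 21.7% of all control-specific peaks. These were at NR1D1, NR1H4 and NR3C1. The same held for 2 of 46 depleted-specific receptor peaks, 4.35% (0.531 to 14.8%), against 14.8% of all. None of the 68 lay within 500 bp of a peak of the other library. Among all peaks, 7.92% of control-specific and 5.57% of depleted-specific ones had so close a neighbour. The receptor intervals, 0 to 15.4% and 0 to 7.71%, hold these values. Dense chromosomes carried 36.4% of control-specific and 32.6% of depleted-specific receptor peaks, against 81.6% and 65.9% of all. Their part in these shares was not tested. At promoters, 27.1% of all control-specific and 11.7% of all depleted-specific peaks had a counterpart within 1000 bp. The specific promoter peaks of RXRA, NR1D2, NR2F2, NR3C2, NR4A3, NR5A2, HNF4G and RARG had none listed at that distance. How near the threshold the other library came there was not analysed here, since the lists hold called peaks only.

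By position, 55 of the 94 receptor peaks had their centre inside the gene they were named for, 9 lay in another protein-coding gene only and 30 in none. Introns held 7 of 26 common, 10 of 22 control-specific and 26 of 46 depleted-specific receptor peaks, which is 26.9%, 45.5% and 56.5% against 35.2%, 46.2% and 44.1% of all peaks of those lists. The promoter share of common receptor peaks was 42.3% (23.4 to 63.1%) and that of all common peaks 24.0%. It was 9.09% (1.12 to 29.2%) for control-specific and 15.2% (6.34 to 28.9%) for depleted-specific receptor peaks, against 5.54% and 11.1% of all peaks of those lists. The difference between these shares was 6.13 points, with an interval from -15.8 to 21.9 points, so that no difference was detectable with so few peaks. This interval joins the Clopper-Pearson limits of both shares by Newcombe's formula. Off the dense chromosomes the promoter share was 46.2% for common receptor peaks, against 35.6% of all common peaks there. It was 7.14% for control-specific and 22.6% for depleted-specific receptor peaks there, against 15.2% and 22.2% of all. The control-specific receptor share thus stood above that of all peaks over all chromosomes and below it off the dense ones.

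Motif letters were searched on both strands of whole peaks, which all span 301 bases, so the share over all listed peaks of the same class is the comparison. GGGCGG was found in 14 of 20 receptor promoter peaks, 70.0% (45.7 to 88.1%), against 62.3% of all promoter peaks. Of the 7 depleted-specific promoter peaks 5 held it, and HNF4G and NR5A2 did not. CCAAT was found in 8 of the 20, against 44.6% of all promoter peaks. Distal common receptor peaks held GGGCGG in 6 of 15, 40.0% (16.3 to 67.7%), against 8.38% of all common distal peaks. These 6 lay at NR1D1, with 2 peaks, NR4A1, NR6A1, PPARD and PPARG. Distal depleted-specific receptor peaks held it in 3 of 39, 7.69%, against 5.80%, so their share was near that of the list. Of the 6 common distal peaks with GGGCGG, 5 held 50.5 to 70.1% G and C and that of NR6A1 41.9%, where the median of all common distal peaks was 44.5%. The 2 peaks of NR1D1 lay 1402 and 2341 bp from its TSS. The part of base composition and of position in that share was not tested.

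Half-sites that nuclear receptors bind were found at shares near those of all peaks. AGGTCA was found in 4 of 20 receptor promoter peaks, 20.0% (5.73 to 43.7%), against 12.4% of all promoter peaks, and in 23 of 74 distal ones, 31.1% (20.8 to 42.9%), against 23.7%. AAGTCA, a variant half-site, was found in 0 of 20 promoter peaks, which allows a share of up to 16.8%, against 9.79% of all promoter peaks, and in 17 of 74 distal ones, 23.0%, against 20.8% of all.

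Genes that work with the receptors were described from lists of coregulators, ligand supply and direct targets. All 9 coactivator genes had a peak, where the background was 51.4%, and 6 had a promoter peak: MED1, NCOA3, NCOA4, NCOA6 and NCOA7 in the common list, and PPARGC1A, the PGC1 alpha coactivator of mitochondrial and fasting genes, in the specific lists. NCOA3, NCOA6 and NCOA7 had a control-specific promoter peak too, and NCOA7 also a depleted-specific one. These 3 genes lie on dense chromosomes, 20 for NCOA3 and NCOA6 and 6 for NCOA7. PPARGC1A had a control-specific promoter peak of 17 tags 557 bp upstream and depleted-specific ones of 17 and 11 tags 66 and 49 bp upstream of its start sites. Of 8 corepressor genes 2 had a promoter peak, NCOR1 and TBL1X, each depleted-specific with 11 tags. Of 12 genes for ligand supply and carriers 4 had one, with FABP1 common, ALDH1A1 control-specific and CYP27A1 and DIO1 depleted-specific. Of 22 direct target genes 5 had one. FKBP5 and SLC51B were common, ABCB11, the bile salt export pump, was control-specific, and DHRS3 and SREBF1 were depleted-specific. A promoter peak in any list was named for 28% of all protein-coding genes. The counts of 2 of 8, 4 of 12 and 5 of 22 stood near that share, and 6 of 9 coactivator genes above it. Peaks of any class were named for 6 of the 8 corepressor, 6 of the 12 ligand supply and 18 of the 22 direct target genes. These backgrounds are over all chromosomes and do not allow for the dense ones.

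The label of the cells was checked against marker genes. Promoter peaks were named for 8 of 12 hepatocyte markers (AMBP, APOA1, APOA2, APOB, APOC3, FGA, SERPINA1 and TF) and for 0 of 12 markers of other cell types. The share over all protein-coding genes was 28%. Of the 8, 7 were in the common list and TF in the control-specific one. The promoters of ALB, AFP, FGB and TTR had no listed peak, and TTR had none at all. Peaks of any class were named for 11 of the 12 hepatocyte markers and for 8 of the 12 others. Both counts stood above the share over all protein-coding genes, 51.4%, so only promoter peaks separated these marker lists clearly.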

How the data were processed

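FAIRE-seq was measured in 1 control and 1 NR2E3-depleted HepG2 library, with groups taken from the treatment label. The authors made reads with bcl2fastq 2.17, trimmed them with Trimmomatic 0.39, aligned them with Bowtie2 2.4.5 to hg38, used SAMtools 1.14, and called and annotated peaks with HOMER at a q-value under 0.05. The versions are from the submitters' processing notes. The rule that separated common from specific peaks, and any correction for input or copy number, are not given in the sources used here. The peak score deposited by the authors is a scaled tag number.

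From these files, each list had 1 smallest score step (0.407 in the common and control-specific lists, 0.507 in the depleted-specific list) of which 100% of scores under 10 were whole multiples. Depths assume a scale of 10 M tags, which is not stated. The receptor genes, the gene lists and the rules were chosen with earlier results of these data known. The genes named were NR2E3, PPARD, all with a promoter peak, the 5 with most peaks, the 3 with the largest difference in specific peaks in each direction, the highest score of each list and 9 receptors of liver. Others are given to account for every gene. Applying the tag and score limits to all peaks was added after the data were seen. Gene positions came from GENCODE release 44 and sequence from hg38. Of 45 receptor genes, 40 are in the RefSeq promoter table, and the other 5 are printed without sequence. A few sequences are not reported here. Intervals are exact (Clopper-Pearson, Poisson, binomial) or, for the difference in shares, join Clopper-Pearson limits by Newcombe's formula. With 1 library per group no p-value was computed. The calculations were tested on simulated data. Calculations ran in Python 3.11.15 with scipy 1.17.1, pandas 2.3.3 and numpy 2.4.6, and plots in matplotlib 3.10.9.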

Additional observations from a re-analysis of the deposited data

How the results depend on the processing

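Under 11 settings, 74 of 86 alternative values of 12 results stayed within 1.5 times the reported count or inside the reported 95% interval. These intervals are wide, so values inside them also moved. Some of the 74 could not change. Redrawing promoters leaves the ratios of peak numbers and the number of genes with any peak as they were. Taking peaks as shared also leaves that number of genes. Merging peaks within 500 bp, sharing within 500 bp and a promoter of 1000 bp left every computed value as reported. The 74 are therefore not a measure of robustness. The difference in promoter share, 6.13 points, was 17.3 with at least 15 tags and 15.4 without the dense chromosomes, the ratio of 2.09 was 3.25 with peaks taken by gene body, and the promoter share with AGGTCA, 20.0%, was 10.0% within 100 bp of the centre. Requiring at least 15 tags gave the reversals, with ratios of 0.923 for specific peaks and 0.968 for all peaks of the 2 libraries (1.50 before), and left 21 genes with any peak, 11 with a promoter peak, 3 with a depleted-specific promoter peak and 1 with a control-specific one. The count of 2 genes with a control-specific promoter peak also became 1 (RXRA) at a score of at least 6, without the dense chromosomes, and with peaks within 1000 bp taken as shared, and became 4 with promoters drawn to 3000 bp. That wider promoter gave 11 genes with a depleted-specific promoter peak. Without the dense chromosomes 6 genes had a common promoter peak. Naming by the nearest protein-coding TSS of GENCODE gave 36 genes with a peak, among them NR4A2, PPARA, RORB and THRB. The library ratio cannot change when specific peaks are taken as shared, so it has no value there. At 10 to 25 tags a peak, single peaks were measured with low precision, and a peak absent from a list can lie just under the threshold. No paired analysis was possible because only 1 library was made per group.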
